A study of Mus musculus with 24 samples.

Results

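The genes described here encode the enzymes that carry glucose through glycolysis to pyruvate and lactate, and pyruvate through the pyruvate dehydrogenase complex into the citric acid cycle. They were measured in striatum and cerebellum of a mouse model of Huntington's disease. The list named 37 genes by symbol. Of these, 34 were measured, out of 10766 genes in all. A gene entered with the probe set that had the highest mean over 24 arrays, among probe sets that pair with 1 gene symbol and had a tissue mean of at least 4 on the log2 scale in striatum or in cerebellum. The symbols Gpi1 (glucose-6-phosphate isomerase) and Eno1 (a second enolase) matched no probe set of the platform annotation and were not analysed here. Gapdh, the enzyme that oxidises glyceraldehyde-3-phosphate, was represented by 3 probe sets that pair with several symbols and by 3 control probe sets, and it is described from the control probe sets alone.

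The study compared total RNA of mice homozygous for the HdhQ111 knock-in allele, which carries an expanded glutamine stretch in huntingtin, with that of wild-type mice (Hdh+/Hdh+, labelled Q7/Q7). Striatum, the forebrain region that degenerates first in Huntington's disease, and cerebellum were taken at 3 to 10 weeks of age in every group. The 4 groups were Q111 striatum, wild-type striatum, Q111 cerebellum and wild-type cerebellum, with 6 arrays each that the labels call biological replicates. The labels give neither the sex of the mice nor whether a mouse gave both tissues. The allele is carried by every cell of the animal, and the RNA is of whole tissue.

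Glycolysis splits 1 glucose into pyruvate in the cytosol, where lactate dehydrogenase interconverts pyruvate and lactate. Inside mitochondria pyruvate dehydrogenase makes acetyl-CoA, and the citric acid cycle oxidises it to feed the respiratory chain, which supplies most of the ATP of neurons. Several steps have isoenzymes with cell preferences: aldolase C, for example, marks Purkinje cells and astrocytes in cerebellum, and astrocytes are regarded as more glycolytic than neurons. Impaired energy metabolism has long been discussed as a feature of Huntington's disease.

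Promoter sequences are shown for 4 members on which the results below turn: Ldha, the member with the largest rise in striatum relative to cerebellum, Aldoc and Idh3g, with the largest falls, and Idh1, the member with the lowest p between genotypes. Each is the 250 bases before the most upstream transcription start listed for the gene in RefSeq (GRCm38.p6), printed on the strand of the gene. Capitals mark ACGTG on either strand (ACGTG or CACGT as printed), a form of the core of hypoxia response elements, which bind Hif1a and its partner Arnt. The other form of the core, GCGTG, was not searched and is not marked. The palindrome CACGTG holds both orientations, which overlap there.
Ldha, chr7:46845554-46845803, plus strand: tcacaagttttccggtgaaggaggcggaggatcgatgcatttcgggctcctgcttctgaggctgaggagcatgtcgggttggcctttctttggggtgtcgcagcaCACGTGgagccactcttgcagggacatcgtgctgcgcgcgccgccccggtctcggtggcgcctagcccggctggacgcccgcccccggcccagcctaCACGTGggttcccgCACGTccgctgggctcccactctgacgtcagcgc
Aldoc, chr11:78322823-78323072, plus strand: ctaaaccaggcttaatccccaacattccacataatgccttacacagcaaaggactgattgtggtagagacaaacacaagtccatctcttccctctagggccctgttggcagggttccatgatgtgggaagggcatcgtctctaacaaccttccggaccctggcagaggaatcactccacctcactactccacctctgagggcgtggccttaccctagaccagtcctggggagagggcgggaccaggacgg
Idh3g, chrX:73786898-73787147, minus strand: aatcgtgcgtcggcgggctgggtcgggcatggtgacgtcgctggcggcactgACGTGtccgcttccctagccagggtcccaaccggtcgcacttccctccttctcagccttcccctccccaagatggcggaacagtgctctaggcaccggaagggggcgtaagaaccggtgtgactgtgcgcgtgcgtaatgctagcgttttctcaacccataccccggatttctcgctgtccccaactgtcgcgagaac
Idh1, chr1:65186480-65186729, minus strand: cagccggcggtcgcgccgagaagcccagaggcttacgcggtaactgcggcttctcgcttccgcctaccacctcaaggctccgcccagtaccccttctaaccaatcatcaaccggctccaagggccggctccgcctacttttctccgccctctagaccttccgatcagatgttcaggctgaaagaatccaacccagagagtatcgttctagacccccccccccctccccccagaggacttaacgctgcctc

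The Ldha window held 2 matches on the printed strand and 3 on the other, in 3 stretches. The Idh3g window held 1 match, and those of Aldoc and Idh1 held none of the form searched. Over all listed starts of a gene, 12 of the 33 measured members with an entry (36.4%) had a match, against 4998 of 27025 genes (18.5%) in the whole promoter table. That table also holds genes not measured here, and neither expression nor the number of starts was matched. The shares are therefore of unlike sets, and enrichment was not tested. Among members, a match was present in 1 of 4 that were higher in striatum of wild-type mice, 5 of 18 that were lower and 6 of 11 that were not called. A match describes letters and is not a binding site. Idh3a has no entry in the table.

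The values are GCRMA log2 values, in which a difference of 1 is a doubling. Array medians lay between 3.38 and 3.51. Within a group, arrays correlated at 0.983 to 0.993 over the 20738 kept probe sets, against 0.796 to 0.849 between tissues. Members were bright and steady: their pooled SD within groups ran from 0.05 (Mdh1) to 0.19 (Me1) with a median of 0.10, against a median of 0.17 over all genes. Of the 34 members, 5 were read by probe sets of the type that may cross-hybridise with related sequences (Aldoa, Pgk1, Dlat, Aco1 and Mdh1) and 2 by probe sets shared by transcripts (Idh1 and Suclg2). The probe set of Mdh1, cytosolic malate dehydrogenase, and the others of the first kind may therefore read pseudogene or paralog transcripts as well.

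Whether transcripts of these enzymes differed between Q111 and wild-type striatum was asked first, since striatal neurons are the vulnerable population. None of the 34 members passed the threshold, which was an adjusted p of 0.05 in limma (Benjamini-Hochberg over every kept probe set). Over all genes, 2.78% passed in this comparison. At an unadjusted p under 0.05 there were 7 members, which is 20.6% of the members against 19.2% of all genes. Of these, 1 was higher in Q111 (Hk1, where 6.2% of all genes were) and 6 were lower (Aldoa, Dlat, Idh1, Idh3b, Ogdh and Me1, where 13% of all genes were). Differences above 0 were found in 11 of 34 members as deposited, against 42.2% of all genes, and in 18 of 34 after centring each array on its median. For none of the members were the Q111 and wild-type arrays free of overlap, against 2.43% of all genes. The differences ran from -0.27 to 0.15 with a median of -0.05, against a median of -0.03 over all genes. After median centring the members' median was 0.00, while that over all kept probe sets went from -0.02 to 0.03. The widest 95% confidence limit of any member, read by its brightest probe set, lay 0.48 from 0. A change of 1.5-fold in the mean of that probe set therefore lay outside each interval. Dimmer probe sets of the members are not covered by this bound. In bulk tissue, fewer cells of a type and less RNA per cell cannot be told apart.

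**Figure D1:**
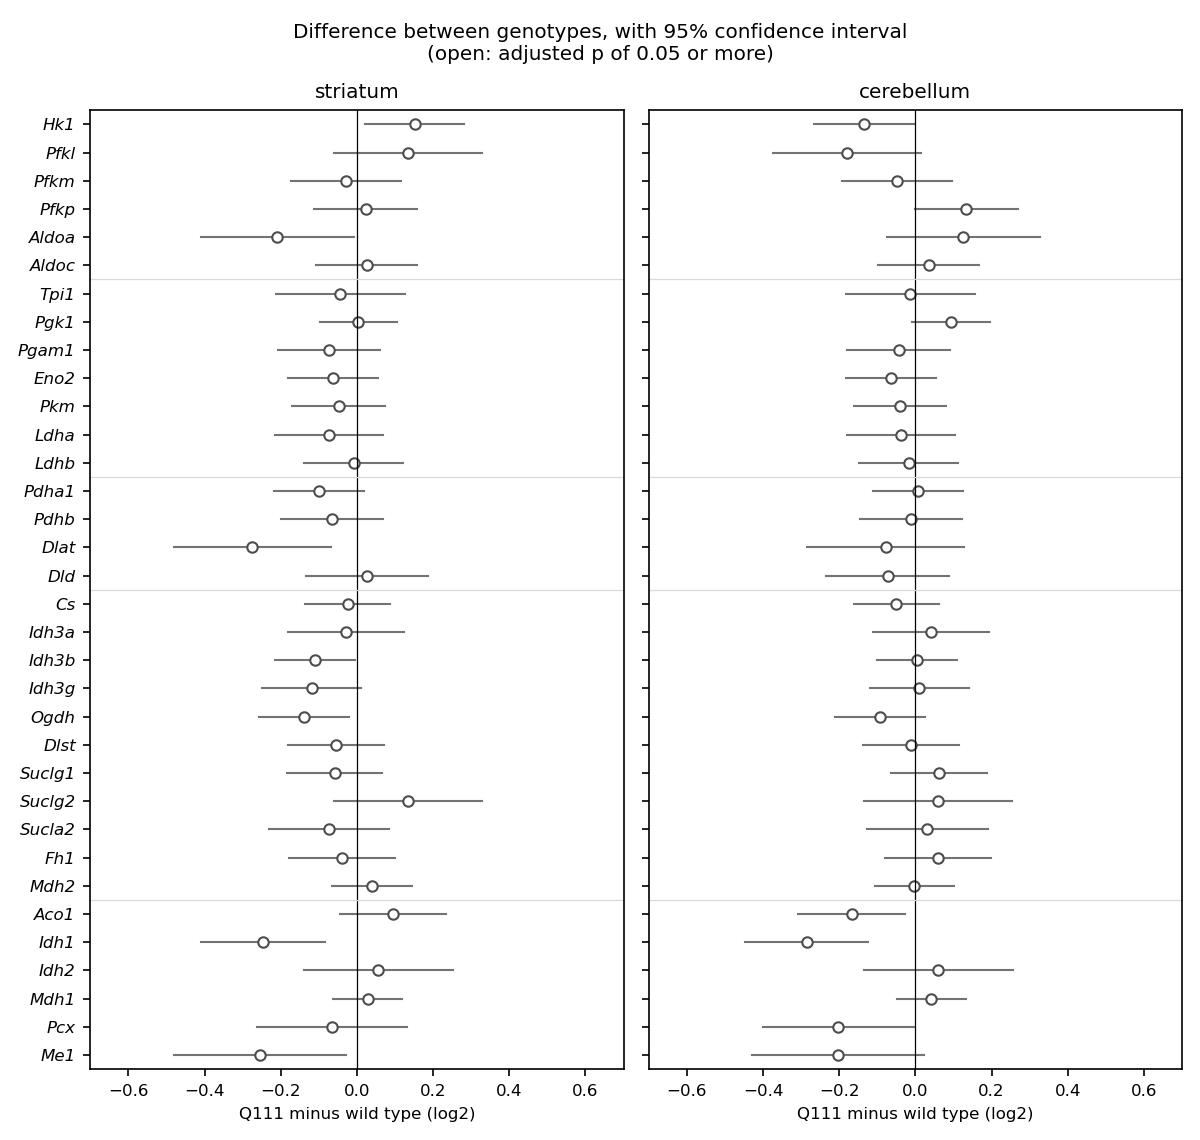
Difference between Q111 and wild type for each of the 34 members (rows, grouped by role with grey lines), in striatum (left) and cerebellum (right), on the log2 scale. Points are limma estimates from 6 arrays per group and lines are 95% confidence intervals; all points are open because no member passed an adjusted p of 0.05, and the lowest values are those of Dlat, Me1 and Idh1 in striatum and of Idh1 in cerebellum.

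Among the 6 measured members before the triose step, 4 differences were above 0 and 2 below in striatum. Hk1, the main brain hexokinase, which phosphorylates glucose, had a lowest, median and highest value of 10.99, 11.08 and 11.16 in Q111 striatum, against 10.77, 10.94 and 11.09 in wild-type striatum. Every Q111 array lay above the wild-type median, and the groups overlapped. The difference was 0.15 (SE 0.06, adjusted p = 0.187, limma), and a dimmer probe set of Hk1 gave 0.43 (adjusted p = 0.0882, limma). Aldoa, aldolase A, averaged 13.19 ± 0.16 in Q111 striatum and 13.40 ± 0.15 in wild-type striatum (SD, n = 6 each), a difference of -0.21 with an adjusted p of 0.242 in limma. Of its other 4 probe sets 3 lay between -0.18 and -0.14, and the last was at 0.01. The 3 phosphofructokinases, which commit sugar to glycolysis, gave 0.13 (Pfkl), 0.02 (Pfkp) and -0.03 (Pfkm).

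From the trioses to lactate, the 7 measured members lay close to 0. In striatum their differences ran from -0.07 to 0.00. Tpi1 (triose phosphate isomerase), Pgk1 (phosphoglycerate kinase), Pgam1 (phosphoglycerate mutase), Eno2 (the neuronal enolase), Pkm (pyruvate kinase), Ldha and Ldhb (the subunits of lactate dehydrogenase) all had adjusted p-values of 0.594 or more in limma. For Pkm, for instance, the Q111 mean was 12.60 ± 0.10 and the wild-type mean 12.65 ± 0.09 (SD, n = 6 each). Gapdh, read by its control probe set at the 3' end, averaged 13.76 ± 0.07 in Q111 striatum and 13.76 ± 0.04 in wild-type striatum (SD, n = 6 each; two-sided exact permutation test p = 0.955). In cerebellum the same probe set averaged 13.79 ± 0.06 for Q111 and 13.84 ± 0.05 for wild type (exact permutation p = 0.119). The other Gapdh control probe sets gave exact p-values from 0.147 to 0.833 over both tissues.

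In the pyruvate dehydrogenase complex, Dlat, the E2 subunit that carries the lipoyl group, had the lowest estimate of any member in striatum. Its lowest, median and highest values were 8.22, 8.32 and 8.63 in Q111 striatum, against 8.43, 8.64 and 8.79 in wild-type striatum. The groups overlapped through 1 Q111 array at 8.63. The difference was -0.27 (SE 0.10, adjusted p = 0.129, limma), and the other 2 probe sets of Dlat gave -0.11 and -0.01. Pdha1 and Pdhb, the E1 subunits, differed by -0.10 and -0.07, and Dld, the E3 subunit shared with 2-oxoglutarate dehydrogenase, by 0.03.

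Of the 11 mitochondrial citric acid cycle members, 9 had differences below 0 in striatum and 2 above, from -0.14 to 0.13, but after median centring 6 lay below and 5 above. Ogdh, the E1 subunit of 2-oxoglutarate dehydrogenase, an enzyme whose activity is thought to limit the cycle in brain, averaged 10.38 ± 0.07 in Q111 striatum and 10.51 ± 0.13 in wild-type striatum (SD, n = 6 each; difference -0.14, adjusted p = 0.182 in limma). Idh3b and Idh3g, the regulatory subunits of NAD-dependent isocitrate dehydrogenase, were -0.11 and -0.12, and the catalytic Idh3a was -0.03. Suclg2, the GTP-forming succinyl-CoA ligase subunit, was highest at 0.13. Citrate synthase (Cs) was -0.02, and fumarase (Fh1) -0.04.

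Among the cytosolic, NADPH-linked and anaplerotic enzymes, Idh1 and Me1 had the lowest differences. Idh1 is cytosolic isocitrate dehydrogenase and Me1 is cytosolic malic enzyme, and both make NADPH. Idh1 had a lowest, median and highest value of 8.21, 8.38 and 8.64 in Q111 striatum, against 8.42, 8.68 and 8.73 in wild-type striatum. In cerebellum these values were 7.80, 8.001 and 8.14 in Q111, against 8.17, 8.25 and 8.47 in wild type. In striatum the groups overlapped and 5 of 6 Q111 arrays lay below the wild-type mean, whereas in cerebellum every Q111 array lay below every wild-type array. The difference was -0.25 in striatum (SE 0.08, adjusted p = 0.0851, limma) and -0.29 in cerebellum (SE 0.08, adjusted p = 0.0991, limma), a 1.19-fold and a 1.22-fold lower level. Neither passed the threshold. In cerebellum, groups that did not overlap with Q111 lower made up 1.01% of all genes.

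The Idh1 differences lay below 0 in both number sets of both tissues, at -0.15 and -0.34 in striatum for replicate numbers 1 to 3 and 4 to 6, and at -0.34 and -0.24 in cerebellum. Those of Ogdh, Me1 and Cs also lay below 0 in each. Idh1 was singled out by its p over these same arrays, so its shared sign is not a replication. A second probe set of Idh1 gave -0.11 in striatum (adjusted p = 0.621, limma) and -0.34 in cerebellum (adjusted p = 0.128, limma). Without Q111 striatum array 3, the striatal difference was -0.30 with an adjusted p of 0.0417 in limma. In a contrast that averages both tissues, added after the values were seen, Idh1 was -0.27 (SE 0.06, adjusted p = 0.00701, limma), and 1 of 34 members passed, against 5.69% of all genes. Having been chosen with these values known, it is not separate support for Idh1. The fit also takes the tissues as independent, and the labels do not tell whether a mouse gave both. The averaged Idh1 call was lost after centring each array on its median (-0.19, adjusted p = 0.0595 in limma) and within either number set alone. The mitochondrial isoenzyme Idh2 differed by 0.06 in both tissues.

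Me1 had a lowest, median and highest value of 7.64, 7.81 and 8.13 in Q111 striatum, against 7.73, 8.11 and 8.29 in wild-type striatum, where the low value is 1 array that stands apart. The groups overlapped, and the difference was -0.25 (SE 0.11, adjusted p = 0.198, limma). In cerebellum the difference was -0.20 (SE 0.11, adjusted p = 0.414, limma). Its other probe set gave -0.28 in striatum (SE 0.07, adjusted p = 0.0418, limma) and -0.31 in cerebellum (SE 0.07, adjusted p = 0.0555, limma), so the striatal result for Me1 depends on which probe set stands for the gene. Pcx, pyruvate carboxylase, the anaplerotic enzyme of astrocytes, was -0.07 in striatum and -0.20 in cerebellum. Aco1, cytosolic aconitase and iron regulatory protein, was 0.09 in striatum and -0.17 in cerebellum, and Mdh1 was 0.03 and 0.04.

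**Figure D2:**
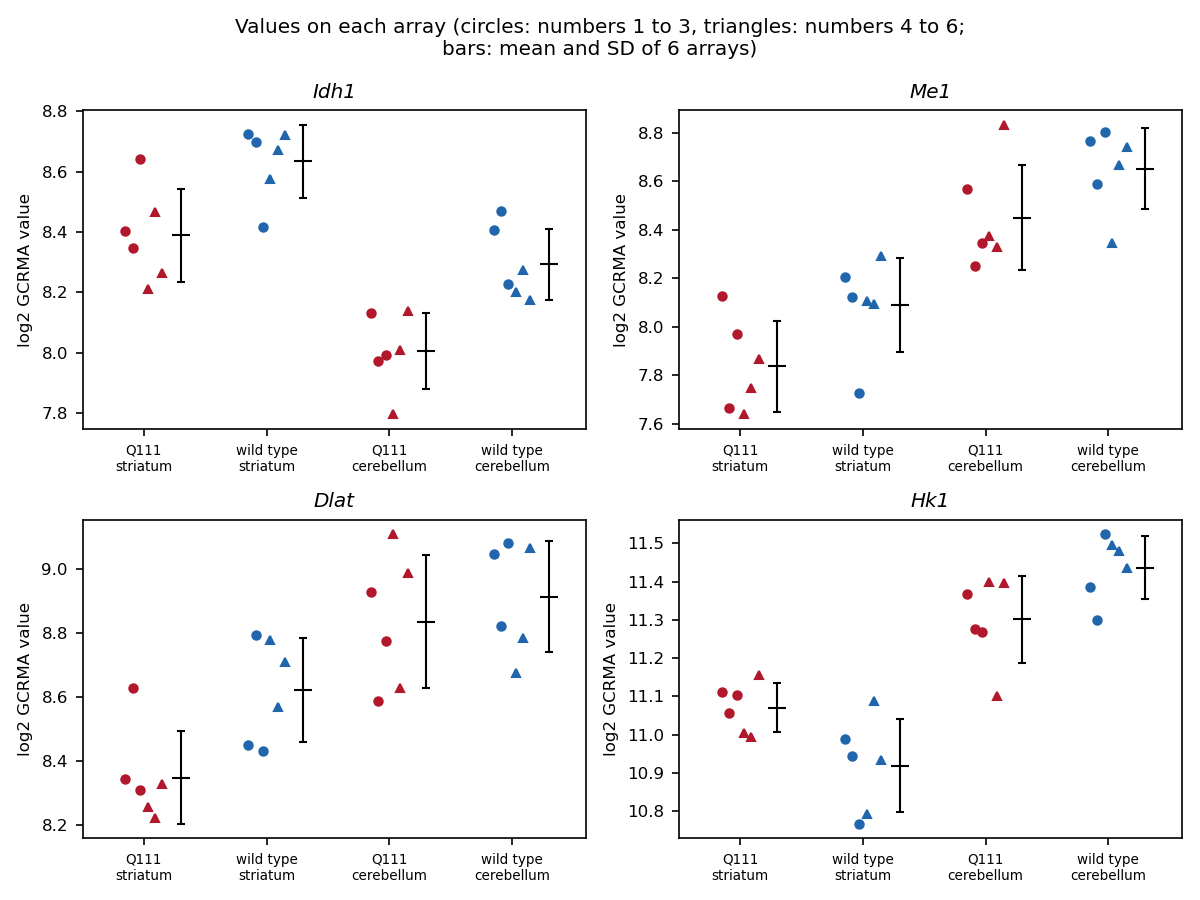
GCRMA log2 values of Idh1, Me1, Dlat and Hk1 on each of the 24 arrays, by group, with replicate numbers 1 to 3 as circles and 4 to 6 as triangles; bars give the mean and SD of 6 arrays. In cerebellum all Idh1 values of Q111 lie at 8.14 or below and all wild-type values at 8.17 or above; in the other panels the genotypes overlap within a tissue.

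In cerebellum, likewise, none of the members passed in limma, against 0.446% of all genes. At an unadjusted p under 0.05 there were 4 members, which is 11.8% against 14.4% of all genes. All 4 were lower in Q111 (Idh1, Aco1, Hk1 and Pcx). At the same unadjusted p, 11.7% of all genes were lower and 2.68% higher. The differences ran from -0.29 to 0.13 with a median of -0.01, against -0.05 over all genes. They lay above 0 in 14 of 34 members as deposited, against 33.9% of all genes. After median centring they did in 28 of 34, with a members' median of 0.0876. That centring also moved the median over all kept probe sets, from -0.05 to 0.05. Hk1 averaged 11.30 ± 0.11 in Q111 cerebellum and 11.44 ± 0.08 in wild-type cerebellum (SD, n = 6 each), a difference of -0.14 with an adjusted p of 0.340 in limma. Its sign was opposite to that in striatum. The largest positive estimates were those of Pfkp and Aldoa, both at 0.13. The mitochondrial cycle members stayed within -0.09 and 0.06 as deposited, and all 11 lay above 0 after median centring.

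The interaction asked whether the difference between genotypes itself differed between striatum and cerebellum. None of the 34 members passed, against 0.0836% of all genes, and 4 had an unadjusted p under 0.05 (11.8%, against 10.2% of all genes). The estimates lay above 0 in 12 of 34 members as deposited, against 53.9% of all genes. They did in 30 of 34 in numbers 1 to 3 alone and in 5 of 34 in numbers 4 to 6 alone. After median centring they did in 6 of 34, and the median over all kept probe sets went from 0.02 to -0.03. Hk1 had the lowest p, with an interaction of 0.29 (SE 0.09, adjusted p = 0.205, limma). Pfkl was 0.31, Aco1 0.26 and Aldoa -0.33, with adjusted p-values of 0.423, 0.315 and 0.399 in limma. The Hk1 interaction was 0.29 in numbers 1 to 3 and 0.28 in numbers 4 to 6. Those of Aldoa and Pfkl reached the opposite sign in 1 of the sets, at 0.03 in numbers 1 to 3 for Aldoa and at -0.00417 in numbers 4 to 6 for Pfkl.

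The members' differences in striatum changed with the replicate numbers used. Their median difference between Q111 and wild type was 0.07 in numbers 1 to 3 and -0.14 in numbers 4 to 6. The sign was shared by 14 of 34 members (41.2%), against 50.5% of all genes. In cerebellum the medians were -0.09 and 0.06, and the sign was shared by 17 of 34 members (50%), against 57.3% of all genes. For the interaction the medians were 0.08 and -0.15, and the sign was shared by 7 of 34 members (20.6%), against 47.6% of all genes. The labels do not say what the numbers stand for.

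**Figure D3:**
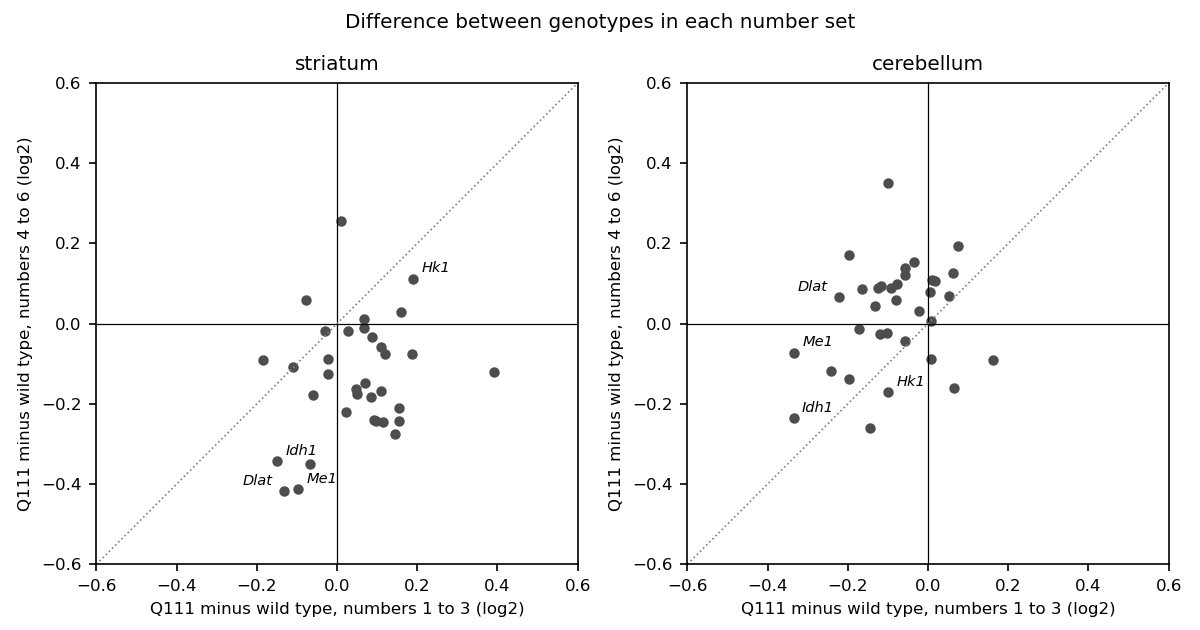
Difference between Q111 and wild type of each of the 34 members on the log2 scale in replicate numbers 1 to 3 (horizontal axis) and 4 to 6 (vertical axis), 3 arrays per group and set, in striatum (left) and cerebellum (right). Points on the dotted line have the same difference in both sets. Among the labelled genes, Idh1, Me1 and Dlat lie below 0 in both sets in striatum, and Idh1, Me1 and Hk1 in cerebellum.

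Cell type markers and control probe sets were also compared between genotypes in striatum. Over all genes, 0.873% were called higher in Q111 striatum and 1.9% lower. The marker lists were chosen with earlier results of these data known, and markers of 1 cell type need not vary independently. Their counts were therefore not tested against these shares. Of 8 measured cerebral cortex neuron markers 2 were called higher in Q111, and the mean log2 value of that list ran from 6.44 to 7.29 in Q111 striatum, against 6.22 to 6.80 in wild-type striatum. Its log2 summed level ran from 11.24 to 11.51 in Q111 striatum, against 11.22 to 11.69 in wild-type striatum. Of 9 microglial markers 3 were called higher and 1 lower, with log2 summed levels of 11.21 to 11.48 in Q111 striatum and 10.83 to 11.26 in wild-type striatum. Of 6 endothelial and mural cell markers 2 were called lower, with log2 summed levels of 10.35 to 10.61 in Q111 and 10.73 to 11.00 in wild type. Of 8 thalamus and septum markers 1 was called higher, and of 10 astrocyte markers 1 was called lower. None of the 8 striatal projection neuron markers and none of the 9 oligodendrocyte markers was called. No marker of these lists had a group mean under 4 in striatum. The choroid plexus list, with 1 of 6 measured markers under 4 in each genotype, had none called. Its mean log2 value varied widely between arrays, from 5.80 to 8.73 in Q111 striatum and from 5.09 to 8.33 in wild-type striatum. The 3' minus 5' signal of the Actb control probe sets, a sign of RNA integrity, averaged 1.37 ± 0.12 in Q111 striatum and 1.17 ± 0.11 in wild-type striatum (SD, n = 6 each; exact permutation p = 0.0173, adjusted p = 0.0924 over 16 control comparisons), whereas that of Gapdh averaged -0.33 and -0.26 (exact permutation p = 0.182). The part of these in the results for the enzymes was not tested.

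Between tissues, most members differed, and more of them were lower than higher in striatum relative to cerebellum. In Q111 mice 25 of 34 members passed the threshold, 4 higher and 21 lower in striatum. That is 73.5%, against 73.6% of all genes; the lower ones made up 61.8% of the members against 40.7% of all genes, and the higher ones 11.8% against 32.9%. In wild-type mice 23 of 34 passed, 4 higher and 19 lower. That is 67.6%, against 73.8% of all genes; lower ones made up 55.9% against 41.6%, and higher ones 11.8% against 32.1%. The median difference of the members was -0.30 in Q111 and -0.25 in wild type, against -0.07 and -0.08 over all genes. The groups did not overlap for 16 members in Q111 (47.1%, against 53.9% of all genes) and 17 in wild type (50%, against 55.2% of all genes).

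These tissue differences carry a reservation. The lowest value on each array lay between 0.36 and 0.38 in every striatum array and between -0.77 and -0.66 in every cerebellum array, and nothing in the labels tells if the tissues went through 1 normalisation or 1 each. The tissues also differ in cell makeup, and for the labelled tissue the defining markers were present. The 8 striatal projection neuron markers had mean log2 values of 11.90 to 12.58 in Q111 striatum and 11.89 to 12.83 in wild-type striatum, against 5.91 to 6.19 and 5.98 to 6.26 in the cerebellum of each genotype. The 9 granule neuron markers had mean log2 values of 4.14 to 4.61 in Q111 striatum and 4.10 to 4.65 in wild-type striatum, against 11.59 to 11.71 and 11.36 to 11.84 in cerebellum. Of these, 5 were under 4 in Q111 striatum and 6 in wild-type striatum. Purkinje cell markers were lower in striatum for 7 of 8 genes in Q111 and 8 of 8 in wild type. Astrocyte and Bergmann glia markers were lower in striatum for 8 of 10 genes in each genotype, and oligodendrocyte and microglial markers were higher for 9 of 9. The part of cell makeup in the differences of the enzymes was not tested.

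**Figure D4:**
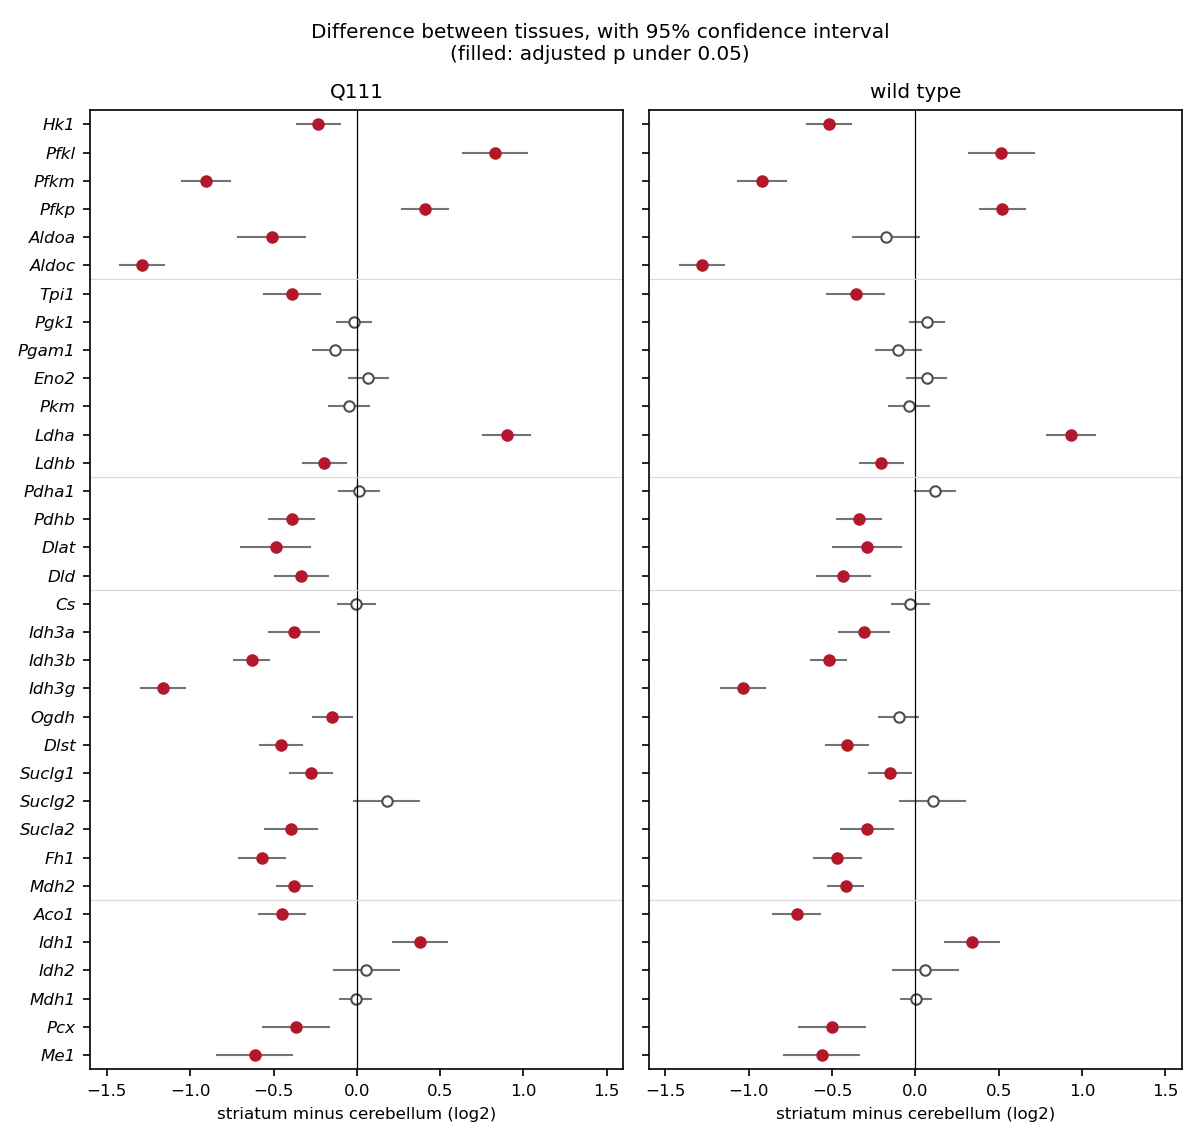
Difference between striatum and cerebellum for each of the 34 members (rows, grouped by role with grey lines), in Q111 (left) and wild-type mice (right), on the log2 scale. Points are limma estimates from 6 arrays per group, filled where the adjusted p was under 0.05, and lines are 95% confidence intervals; Ldha, Pfkl, Pfkp and Idh1 lie above 0 in both genotypes and Aldoc, Idh3g and Pfkm lie farthest below.

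Ldha had the largest difference among the members that were higher in striatum. It encodes the lactate dehydrogenase subunit that prevails in glycolytic tissue. In Q111 mice its lowest, median and highest values were 11.04, 11.17 and 11.34 in striatum, against 10.14, 10.27 and 10.42 in cerebellum. In wild-type mice they were 11.13, 11.25 and 11.37 in striatum, against 10.17, 10.31 and 10.51 in cerebellum. The tissues did not overlap in either genotype. The difference was 0.90 in Q111 (SE 0.07, adjusted p = 2.43e-11, limma) and 0.93 in wild type (SE 0.07, adjusted p = 1.16e-11, limma), a 1.87-fold and a 1.91-fold higher level. Ldhb, the subunit that prevails in oxidative tissue, was lower in striatum, at -0.19 in Q111 (adjusted p = 0.00834, limma) and -0.20 in wild type (adjusted p = 0.00613, limma). The wild-type call for Ldhb was lost when arrays were centred on their medians or when all probe sets of the gene were averaged. The ratio of Ldha to Ldhb was 2.14-fold higher in striatum than in cerebellum in Q111 and 2.20-fold higher in wild type, with no overlap in either.

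The phosphofructokinase isoenzymes moved in opposite directions. Pfkm, the muscle form, had values of 10.91, 11.09 and 11.27 (lowest, median and highest) in Q111 striatum, against 11.86, 12.002 and 12.17 in Q111 cerebellum. In wild type these were 11.00, 11.14 and 11.23 in striatum, against 11.90, 12.05 and 12.23 in cerebellum. All striatum arrays lay below all cerebellum arrays, with differences of -0.90 in Q111 (SE 0.07, adjusted p = 3.22e-11, limma) and -0.92 in wild type (SE 0.07, adjusted p = 2.14e-11, limma). Pfkl, the liver form, was 0.83 higher in Q111 striatum and 0.52 higher in wild-type striatum, and Pfkp, the platelet form, 0.41 and 0.52 higher, with adjusted p-values from 2.79e-08 to 3.08e-05 in limma. The ratio of Pfkl to Pfkm was 3.32-fold higher in striatum in Q111 and 2.71-fold higher in wild type. A second probe set of Pfkl gave 0.48 in Q111 and 0.21 in wild type, where it did not pass (adjusted p = 0.0807, limma).

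Aldoc, aldolase C, had the largest difference of any member. Its lowest, median and highest values were 12.62, 12.75 and 12.86 in Q111 striatum, against 13.97, 13.99 and 14.13 in Q111 cerebellum. In wild type they were 12.58, 12.73 and 12.81 in striatum, against 13.87, 13.97 and 14.24 in cerebellum. The gap between the tissues was over 1 unit in both genotypes. The difference was -1.29 in Q111 (SE 0.06, adjusted p = 5.96e-15, limma) and -1.28 in wild type (SE 0.06, adjusted p = 6.63e-15, limma), a 2.44-fold and a 2.43-fold lower level in striatum. A dimmer probe set of Aldoc gave -0.46 in Q111 and -0.67 in wild type, both past the threshold. Aldoa was -0.51 in Q111 (adjusted p = 5.49e-05, limma) and -0.18 in wild type (adjusted p = 0.108, limma), the Q111 value was -0.34 with all probe sets of Aldoa averaged, and the interaction given above, which tests that contrast, did not pass. The ratio of Aldoa to Aldoc was 1.71-fold higher in striatum in Q111 and 2.15-fold higher in wild type.

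**Figure D5:**
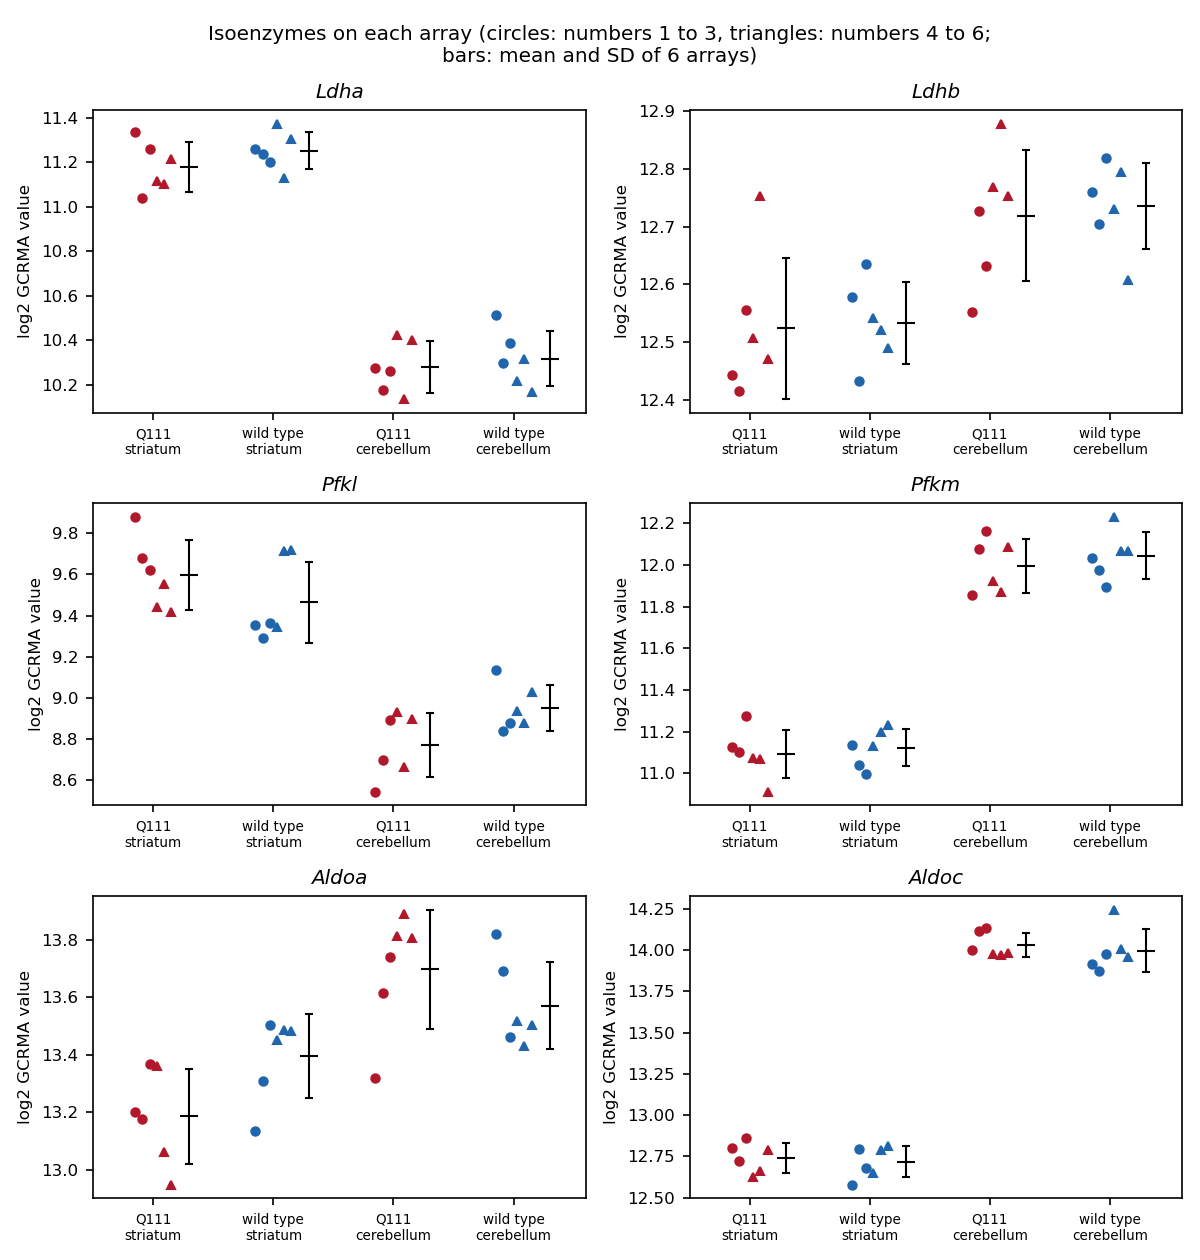
GCRMA log2 values of isoenzyme pairs on each of the 24 arrays, by group: Ldha and Ldhb, Pfkl and Pfkm, Aldoa and Aldoc, with numbers 1 to 3 as circles and 4 to 6 as triangles and bars for the mean and SD of 6 arrays. Ldha and Pfkl are higher in striatum without overlap, and Pfkm and Aldoc are lower without overlap; axes differ between panels, and levels are not compared between genes.

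The remaining glycolytic steps differed less. Hk1 was lower in striatum, with a difference of -0.23 in Q111 (adjusted p = 0.00235, limma) and -0.52 in wild type (adjusted p = 1.01e-07, limma). Tpi1 was lower by 1.31-fold in Q111 and 1.28-fold in wild type. Pgk1, Pgam1, Eno2 and Pkm, which act between the trioses and pyruvate, passed in neither genotype as deposited, and their estimates ran from -0.13 to 0.07. After quantile normalisation Eno2 was called higher in striatum in both genotypes (0.12 in Q111 and 0.13 in wild type) and Pgk1 in wild type (0.11), and Eno2 was also called in wild type after median centring (0.12). Pgam1 was called lower in Q111 with a variance prior that follows intensity (-0.13), in numbers 4 to 6 alone (-0.26) and without Q111 striatum 3 or Q111 cerebellum 3.

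Of the 4 subunits of the pyruvate dehydrogenase complex, 3 were lower in striatum in each genotype. The share of all genes called lower was 40.7% in Q111 and 41.6% in wild type. Dld averaged 9.88 ± 0.10 in Q111 striatum and 10.22 ± 0.16 in Q111 cerebellum, and 9.86 ± 0.15 in wild-type striatum and 10.29 ± 0.10 in wild-type cerebellum (SD, n = 6 each). Its difference was -0.33 in Q111 (adjusted p = 0.00054, limma) and -0.43 in wild type (adjusted p = 2.69e-05, limma). Pdhb was -0.39 in Q111 and -0.34 in wild type, and Dlat -0.49 and -0.29. With all probe sets of a gene averaged, Pdhb was -0.55 in Q111 and -0.79 in wild type, and Dlat was -0.46 in wild type. Pdha1 passed in neither genotype, at 0.01 in Q111 and 0.12 in wild type, but it was called higher in wild-type striatum after quantile normalisation (0.17), after median centring (0.17), with its probe sets averaged (0.28) and under some other settings.

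Of the 11 mitochondrial citric acid cycle members, 9 were lower in striatum in Q111 and 8 in wild type, and none was higher. Over all genes, 40.7% were lower in Q111 and 41.6% in wild type. After quantile normalisation 8 of the members were lower in Q111 and 7 in wild type, and median centring gave 9 and 7. Isocitrate dehydrogenase 3 was lower at every subunit. Idh3g had values of 10.40, 10.49 and 10.71 (lowest, median and highest) in Q111 striatum, against 11.57, 11.69 and 11.81 in Q111 cerebellum. In wild type they were 10.55, 10.62 and 10.81 in striatum, against 11.57, 11.70 and 11.77 in cerebellum. The tissues were far apart on this subunit, by -1.16 in Q111 (SE 0.06, adjusted p = 3.32e-14, limma) and -1.03 in wild type (SE 0.06, adjusted p = 3.17e-13, limma). Idh3b was -0.63 in Q111 and -0.52 in wild type. Idh3a was -0.38 in Q111 and -0.31 in wild type, but the wild-type value was -0.06 with an adjusted p of 0.493 in limma when its 3 probe sets were averaged. The other 2 probe sets of Idh3a gave 0.02 and 0.12 in wild type.

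Fh1 was -0.57 in Q111 and -0.47 in wild type, Mdh2 (mitochondrial malate dehydrogenase) -0.38 and -0.42, and Dlst, the E2 subunit of 2-oxoglutarate dehydrogenase, -0.45 and -0.41. At succinyl-CoA ligase the subunits differed: the ATP-forming subunit Sucla2 was lower (-0.40 in Q111 and -0.29 in wild type) and the GTP-forming Suclg2 passed in neither (0.18 and 0.10). With all probe sets averaged, Suclg2 was called higher in Q111 at 0.33 (adjusted p = 0.00041, limma). The subunit common to both forms, Suclg1, was -0.27 in Q111. In wild type it was -0.15 with an adjusted p of 0.0281 in limma, and this call was lost without any of 6 single arrays (wild-type striatum 2 or 5, wild-type cerebellum 1, 3, 4 or 6). Suclg1 had the smallest difference of the 8 cycle members called in wild type, of which 7 were called after quantile normalisation or median centring. Cs, the enzyme that opens the cycle, did not pass in either genotype, with 95% confidence intervals of -0.11 to 0.11 in Q111 and -0.14 to 0.08 in wild type. Ogdh was -0.15 in Q111, where the call was lost without Q111 striatum 2 or Q111 cerebellum 5, and -0.10 in wild type, where it did not pass. It had the smallest difference of the 9 cycle members called in Q111, of which 8 were called after quantile normalisation and 9 after median centring. A much dimmer probe set of Ogdh gave -1.54 in Q111 and -1.18 in wild type, and the mean of both probe sets gave -0.84 and -0.64, all past the threshold.

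Among the cytosolic and anaplerotic members, Aco1 was -0.45 in Q111 and -0.71 in wild type, Me1 -0.61 and -0.56, and Pcx -0.36 and -0.50, all past the threshold. Idh1 went the other way. It averaged 8.39 ± 0.15 in Q111 striatum and 8.01 ± 0.13 in Q111 cerebellum, and 8.63 ± 0.12 in wild-type striatum and 8.29 ± 0.12 in wild-type cerebellum (SD, n = 6 each), with differences of 0.38 and 0.34. Its second probe set gave 0.83 in Q111 and 0.59 in wild type. Idh2 and Mdh1 passed in neither genotype, although Mdh1 was called lower in Q111 when its probe sets were averaged (-0.15, adjusted p = 0.0467 in limma). The ratio of Mdh1 to Mdh2 was 1.29-fold higher in striatum in Q111 and 1.34-fold higher in wild type.

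The other probe sets of members gave a check on these values. Of 23 further probe sets of the members called in wild type, 21 had the same sign, and of 28 in Q111, 28 did. The sign was also shared by numbers 1 to 3 and 4 to 6 for 26 of 34 members in Q111 (76.5%, against 91.2% of all genes) and 30 of 34 in wild type (88.2%, against 91.7%). In numbers 1 to 3 alone the members' median was -0.21 in Q111 and -0.38 in wild type, and in numbers 4 to 6 alone it was -0.37 and -0.15.

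Genes around the pathway were taken from 8 lists of transporters, regulators, further isoenzymes and neighbouring pathways, of which 78 of 110 genes were measured. In Q111 against wild type, 1 of these passed in striatum (1.28%, against 2.78% of all genes) and none in cerebellum (0.446% of all genes) in limma. An unadjusted p under 0.05 was found for 13 of 78 (16.7%) in each tissue, against 19.2% of all genes in striatum and 14.4% in cerebellum. Pdp1, the phosphatase that activates pyruvate dehydrogenase, was the gene that passed. It had a lowest, median and highest value of 11.64, 11.79 and 12.02 in Q111 striatum, against 11.22, 11.40 and 11.59 in wild-type striatum. The groups did not overlap, and the difference was 0.39 (SE 0.09, adjusted p = 0.0199, limma), a 1.31-fold higher level. In cerebellum it was -0.11 (SE 0.09), which did not pass, and the interaction of 0.50 had an adjusted p of 0.0997. The striatal call was lost under several settings, among them when the probe sets of Pdp1 were averaged (0.27, adjusted p = 0.103 in limma), without wild-type striatum 4 (0.37, adjusted p = 0.0540), and in either number set alone.

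Other genes of these lists with low p in striatum did not pass. Slc16a1, the monocarboxylate transporter 1 that moves lactate, was -0.33 (adjusted p = 0.0528, limma). It passed without Q111 striatum 3, wild-type striatum 1 or wild-type striatum 5, with a filter at 6 and with 2 other settings. Under the remaining settings it did not pass, with limma adjusted p-values of 0.113 after median centring, 0.151 with the replicate number as a block, and 0.197 and 0.256 in numbers 1 to 3 and 4 to 6 alone. Slc25a11, the mitochondrial 2-oxoglutarate carrier, was -0.27 (adjusted p = 0.0630, limma) and Pygb, brain glycogen phosphorylase, -0.21 (adjusted p = 0.0730, limma). Me3, mitochondrial malic enzyme, was -0.31, and Pfkfb2, a maker of the phosphofructokinase activator fructose-2,6-bisphosphate, was -0.36, with adjusted p-values of 0.0869 and 0.103 in limma. In cerebellum the lowest p belonged to Rpia, ribose-5-phosphate isomerase, at -0.40 (adjusted p = 0.138, limma), and Glul, the glutamine synthetase of astrocytes, was 0.23 (adjusted p = 0.156, limma).

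Between tissues, these neighbouring genes were split between higher and lower. In Q111, 23 of 78 were higher (29.5%, against 32.9% of all genes) and 27 lower (34.6%, against 40.7%) in striatum. In wild type 27 were higher (34.6%, against 32.1%) and 26 lower (33.3%, against 41.6%). Regulators of pyruvate dehydrogenase differed in wild type, and all genes given next passed the threshold in limma. Pdp1 was 2.27 higher in striatum, Pdk4 (a kinase that inactivates the complex) 1.73, and Pdk2, another such kinase, -1.79. Of the glycolytic regulators, Pfkfb3 was 1.78 and Hif1a, the hypoxia-inducible factor, -1.41. Me3 was 1.86, opposite in sign to Me1. Nnt, the mitochondrial transhydrogenase that makes NADPH, was 1.09.

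Several of these differences involve genes near the detection limit in 1 tissue. Hk2, hexokinase 2, averaged 2.71 in wild-type striatum and 7.79 in wild-type cerebellum, and with values under 4 set to 4 it was at least 13.9-fold lower in striatum. Pfkfb4 averaged 2.64 in striatum and 4.34 in cerebellum, which bounds its difference at 1.26-fold. For Slc16a7, monocarboxylate transporter 2, the means were 4.55 and 2.86, with a bound of 1.46-fold. Some genes known for a glial or cell-type preference, named here by their size of difference, lay on either side: Slc25a18, a mitochondrial glutamate carrier, was -2.20, Gpd1 -1.32 (-0.85 with all probe sets averaged) and Pygm -2.80, and Gad2, a glutamate decarboxylase of GABA neurons, was 2.30. Glul was also higher in wild-type striatum, at 0.57 (adjusted p = 1.82e-07, limma). Of the 13 measured genes in the list of glycogen and glutamate enzymes, 7 were called higher and 2 lower in wild-type striatum. Over all genes, 32.1% were called higher and 41.6% lower, and the list was not tested against these shares. The glucose transporters Slc2a1 and Slc2a3 did not pass, at 0.06 and -0.02. Of the succinate dehydrogenase subunits, Sdha and Sdhd were lower at -0.33 and -0.61, and Sdhb and Sdhc did not pass at -0.04 and -0.10.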

How the data were processed

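The authors deposited 1 table of log2 values from 24 Affymetrix arrays, made with GCRMA per the submitters' processing notes. The log base is not stated, and the range of values (-0.77 to 16.33) was read as log2. Of 45101 probe sets, 64 controls were left out, and 20738 with a tissue mean of at least 4 were kept. A linear model with 4 group means was fitted to the 24 arrays (limma 3.58.1, R 4.3.3), with 20 residual and 3.22 prior degrees of freedom. Adjusted p-values are Benjamini-Hochberg values over all kept probe sets. Symbols come from the platform annotation of 2016. The members and lists were chosen with earlier results of these data known. All members could be named. From each further list the text drew up to 3 genes past the threshold by size, or else the 2 of lowest p; Slc2a1, Slc2a3, Sdha to Sdhd and the tissue value of Glul were chosen after values were seen. The number of arrays limits the precision.

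On simulated arrays with 200 of 20738 probe sets changed, the model recovered 36% of 1.25-fold and 80% of 1.5-fold changes in striatum (8.67% of its calls were false), and 28% and 70% in cerebellum (7.01% false). For the interaction the shares were 2% and 52% (1.79% false). Noise was drawn independently for each probe set and array, without tissue differences, and the changed probe sets were picked at random. Shifts shared by many genes on an array were not simulated, so the shares for the members may differ. Alternatives covered the filter, array scaling, variance prior, array weights, probe sets of a gene, samples in the fit, replicate number, number set and leaving out each array. Figures were drawn with matplotlib from these values.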

Additional observations from a re-analysis of the deposited data

Results flagged for a closer look

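In 136 sets of 6 arrays, 1 for each member and group, 7 held an array whose gap to its nearest neighbour exceeded Dixon's 95% limit for 6 samples, as a share of the whole range. Chance flags about 1 in 20 such sets.

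Of these, 3 fell on Q111 striatum 3, which was high for Pdha1 (10.75, next value 10.54), Sucla2 (11.35, next value 11.03) and Fh1 (10.14, next value 9.97). This is also the array without which Idh1 passed in striatum. Dlat was high on Q111 striatum 2 (8.63, next value 8.34), and Me1 was low on wild-type striatum 3 (7.73, next value 8.10). In cerebellum, Suclg1 was low on Q111 array 2 (10.90, next value 11.06), and Aldoc was high on wild-type array 4 (14.24, next value 14.00).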

How the results depend on the processing

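Under the alternatives that keep all arrays, the count of members called stayed at 0 in striatum and for the interaction, and it was 1 in cerebellum with array weights (Idh1, -0.29, adjusted p = 0.0390 in limma). Leaving out 1 array in turn gave 0 to 1 members in striatum, 0 in cerebellum and for the interaction, 24 to 26 between tissues in Q111 and 22 to 24 in wild type. The median difference then ran from -0.07 to -0.02 in striatum, from -0.03 to 0.00 in cerebellum and from -0.05 to -0.00 for the interaction. In numbers 1 to 3 alone the medians were 0.0669 in striatum, -0.0866 in cerebellum and 0.0839 for the interaction, and in numbers 4 to 6 alone -0.14, 0.0623 and -0.15. Between tissues they were -0.21 and -0.37 in Q111 and -0.38 and -0.15 in wild type, and 14 members were called in Q111 in numbers 1 to 3 alone. Centring on array medians gave 0.0876 in cerebellum, against 0.05 over all kept probe sets. In the contrast averaged over both tissues, the count of 1 became 0 with median centring and in either number set alone, and it was 1 to 2 when single arrays were left out (2 without wild-type striatum 3 or 6, wild-type cerebellum 4 or Q111 cerebellum 6). Of the members called between tissues, 14 of 25 in Q111 and 15 of 23 in wild type passed under all 24 alternatives counted. Over all kept probe sets, the share of lower ones among those called was 70.9% in striatum as deposited, 51.7% after quantile normalisation and 42.7% after median centring, and 78.9%, 46.4% and 28% in cerebellum.

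The sign turned in numbers 1 to 3 alone for the Aldoa interaction (0.0329), for G6pc3 in striatum (0.35, against -0.28 in all arrays) and for Slc2a4 in cerebellum (0.00287, against -0.27), and in numbers 4 to 6 alone for the Pfkl interaction (-0.00417) and for Pgam5 in striatum (-0.0622, against 0.06). The cause was not tested.

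With the replicate number as a block, 0 members were called in striatum, in cerebellum and for the interaction, 25 between tissues in Q111 and 23 in wild type. Pdp1 in striatum was 0.39 with an adjusted p of 0.0662 in limma, and the block changed no other call of the genes named. Arrays of both genotypes with the same number deviated from their group means with correlations of -0.42 to 0.12. For the 2 tissues of a genotype the correlations were -0.05 to 0.14 in Q111 and -0.0043 to 0.18 in wild type; numbers 3 and 6 in Q111 and 4, 5 and 6 in wild type matched their own number best, and the others did not. Not every pair was above 0.1, so the arrays are treated as sharing only a number, and whether tissues share mice cannot be told from these values.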
